A study of Mus musculus with 8 samples.

Results

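Notum-Lhx6 cells of the mouse tongue epithelium were described here as the cells in which at least 4 of 8 genes had a UMI (a unique molecular identifier, 1 per captured RNA molecule). The 8 rule genes were Jakmip2, Notum, Otop2, Otop3, Lhx6, Msx2, Golga7b and Apcdd1. Of 42550 deposited cell barcodes, 12957 were taken as epithelial cells, and 913 of these met the rule. Epithelial cells had 1000 to 5500 genes, at most 30000 UMIs, at most 7% mitochondrial UMIs and no UMI of the leukocyte gene Ptprc. The keratins Krt5, Krt14, Krt15, Krt13 and Krt6a together had to make up at least 0.5% of their UMIs. The members were chosen by these same counts, so their levels of the rule genes, and every comparison of members with the remaining cells, are given as a description without a test.

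The study asked how an active YAP1 allele and the E6 and E7 oncogenes of HPV16 change oral epithelial progenitors. All mice carried Krt14-CreERT, a tamoxifen-dependent recombinase under the keratin 14 promoter, and LSL-rtTA, the doxycycline-dependent activator that it switches on. Control mice (N) carried nothing further in the labels, E mice added tetON_E6-E7, Y mice added tetON_YAP1S127A, and EY mice carried both. The methods also give every mouse a tetON H2B-GFP reporter. Mice aged 8 to 16 weeks received 3 tamoxifen doses into the tongue and doxycycline food, and viable cells were sorted and profiled on day 15 in 2 libraries per group. Only Krt14-expressing cells and their descendants can switch on the transgenes, and the labels name viability as the sort, so a library may hold cells that never recombined. The labels name 1 library with more than 1 animal number (N2), which may pool animals.

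Notum is a secreted enzyme that strips the lipid from Wnt proteins and so silences them, and Apcdd1 is a membrane-bound inhibitor of the same pathway. In many epithelia both are themselves switched on by Wnt and beta-catenin signalling, which makes them feedback inhibitors. Lhx6 and Msx2 are homeodomain transcription factors of the developing jaw, teeth and skin appendages. Otop2 and Otop3 encode otopetrin proton channels, relatives of the sour taste channel Otop1. Golga7b encodes a partner of palmitoyl transferases, and Jakmip2 a coiled-coil protein. The tongue surface carries papillae, small keratinised projections whose compartments express hair-type and oral-type keratins in different columns.

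Library totals ranged from 46483469 to 102427359 UMIs. Between 170 and 4055 epithelial cells per library passed the limits, and the number of Notum-Lhx6 cells was 322 and 42 in N, 387 and 31 in E, 78 and 37 in Y, and 5 and 11 in EY. The EY libraries therefore had too few cells for a sum per library, and the tests within these cells used the 6 libraries of N, E and Y, each with at least 20 members. Their summed UMIs ranged from 735800 to 6546980, so that a single UMI stood for 1.36 CPM, UMIs scaled to a fixed library total of 1000000, in the smallest sum. Libraries shared 235 of 42314 distinct barcodes, 8 of the 913 member barcodes also occurred in another library, and none was a member in both. Median depth was 15531 to 25138 UMIs in the members of those 6 libraries and 12292 to 23533 in the other epithelial cells.

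The rule genes did not appear together in a uniform way. Exactly 4 of them were detected in 337 cells, 5 in 257, 6 in 183, 7 in 105 and all 8 in 31. Apcdd1 was seen in 96.2 to 100% of the members of the 6 libraries and Otop3 in 83.8 to 92.9%. Notum was seen in 70.8 to 81.1%, Jakmip2 in 56.4 to 86.3% and Msx2 in 53.8 to 74.2%. The least often detected were Lhx6 with 31.0 to 62.8%, Otop2 with 24.3 to 70.8% and Golga7b with 20.5 to 45.2%. Apcdd1 was the least restricted gene, with a UMI in 29.1 to 42.1% of the other epithelial cells of these libraries, whereas Notum had one in 1.66 to 3.49% and Lhx6 in 0 to 0.908%. In Ptprc-positive immune cells, which should lack these genes and had median depths of 3372.5 to 10871 UMIs, Notum was found in 0 to 0.341% and Apcdd1 in 0.264 to 1.40%.

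Notum (chromosome 11, 120653788 to 120661175, minus strand, GRCm38) stood at 91.1 and 77.4 CPM in the members of N, 84.5 and 76.5 in E, and 79.0 and 95.1 in Y. The 6 libraries lay close together and the groups overlapped. Lhx6 (chromosome 2, 36081953 to 36105408, minus strand) stood at 36.3 and 22.8 CPM in N, 42.5 and 38.9 in E, and 49.7 and 39.4 in Y. Here N held the lowest 2 libraries. Otop2 and Otop3 lie head to tail on the plus strand of chromosome 11, at 115307163 to 115332303 and 115334731 to 115346927, with 2427 bases between them. Otop3 ranged only from 87.0 to 131 CPM over the 6 libraries, while Otop2 ran from 17.7 CPM in Y2 to 85.1 CPM in E1. Jakmip2 was highest in N, at 264 and 240 CPM, against 112 and 157 in E and 89.2 and 144 in Y. Msx2 ranged from 43.6 to 68.5 CPM, with both E libraries (59.4 and 68.5) above the 4 of N and Y. Golga7b ran from 14.0 to 39.7 and Apcdd1 from 274 to 456, with overlapping groups. At the border of the rule, cells with 3 rule genes in N1 numbered 124 and held Notum at 44.2 CPM and Lhx6 at 9.95 CPM, and the 126 cells with 4 held them at 67.2 and 14.0 CPM. Decorin (Dcn), which the rule did not use, was already at 3629 CPM in the former and at 4557 CPM in the latter.

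**Figure D1:**
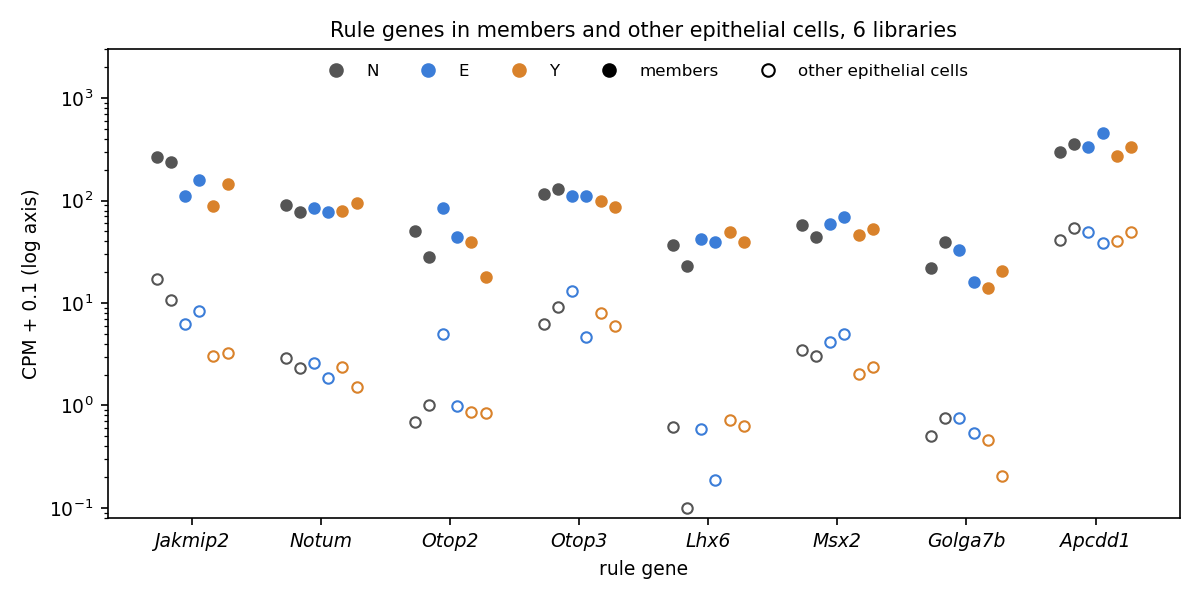
Levels of the 8 rule genes in CPM (log axis, with 0.1 added) in Notum-Lhx6 cells (filled points) and in the other epithelial cells (open points), 1 point per library for the 6 libraries of N, E and Y. Filled and open points do not overlap for any gene, which the choice of the cells fixes, and Apcdd1 has the highest open points, at 38.5 to 54.3 CPM.

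Against the other epithelial cells of the same library, Notum-Lhx6 cells were distinguished by a broader set of genes that the rule did not name. Of 2570 genes that averaged 50 CPM or more on either side, 346 were higher and 449 lower in members in every one of the 6 libraries. With the rule genes and the keratins of the rule left out, 339 were higher and 447 lower. Ratios are log2 of CPM plus 1, and all 12 sums share 6 libraries. The bone and tooth transcription factor Runx2 had the largest mean ratio outside the rule, 3.66 (range 3.01 to 4.17), at 97.4 ± 12.9 CPM (SD, n = 6) against 7.03 ± 2.26. The adhesion molecule Alcam followed with 3.17, the BMP and TGF-beta pseudoreceptor Bambi with 3.12, the neuronal tubulin Tubb3 with 2.91, and the prostaglandin synthase Ptgs1 with 2.88. The small proteoglycan gene Dcn stood at 3943 ± 594 CPM against 574 ± 205. The axon-guidance receptors Robo1 and Robo2 had ratios of 2.10 and 2.13, and the protocadherin Pcdh19 had 2.24. The metallothionein Mt4, a gene of stratified squamous epithelium, was at 11166 ± 1225 CPM against 2414 ± 399, and Mt3 was at 559 ± 230 against 88.0 ± 39.1.

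Others among the 20 highest were the junctional protein gene Lmo7 (mean log2 ratio 2.65), Selenbp1 (2.49), the LIM protein gene Csrp2 (2.22), Dapl1 (2.19), the helix-loop-helix factor Hes6 (2.09), the hair and papilla protein trichohyalin (Tchh), the activin and BMP antagonist follistatin (Fst, 1.84) and Lef1. Tchh varied most between libraries, from 0.26 to 3.20. On the lower side, the suprabasal oral keratin Krt4 was at 99.0 ± 45.2 CPM against 1133 ± 570 in the other cells (mean log2 ratio -3.49). Psca, Wfdc18, Cnfn, Crct1, Crabp1, H19, 2610528A11Rik, Cxcl10 and the haemoglobin gene Hba-a1 completed the 10 lowest. Cnfn and Crct1 belong to the programme of the cornified layer. Psca ranged from 4.70 to 421 CPM in the other cells of the 6 libraries, so its ratio differs widely between them. Hba-a1 is a red cell gene, and haemoglobin genes took 0.0148 to 2.52% of the UMIs of a library, and the part of free RNA in this ratio was not tested.

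**Figure D2:**
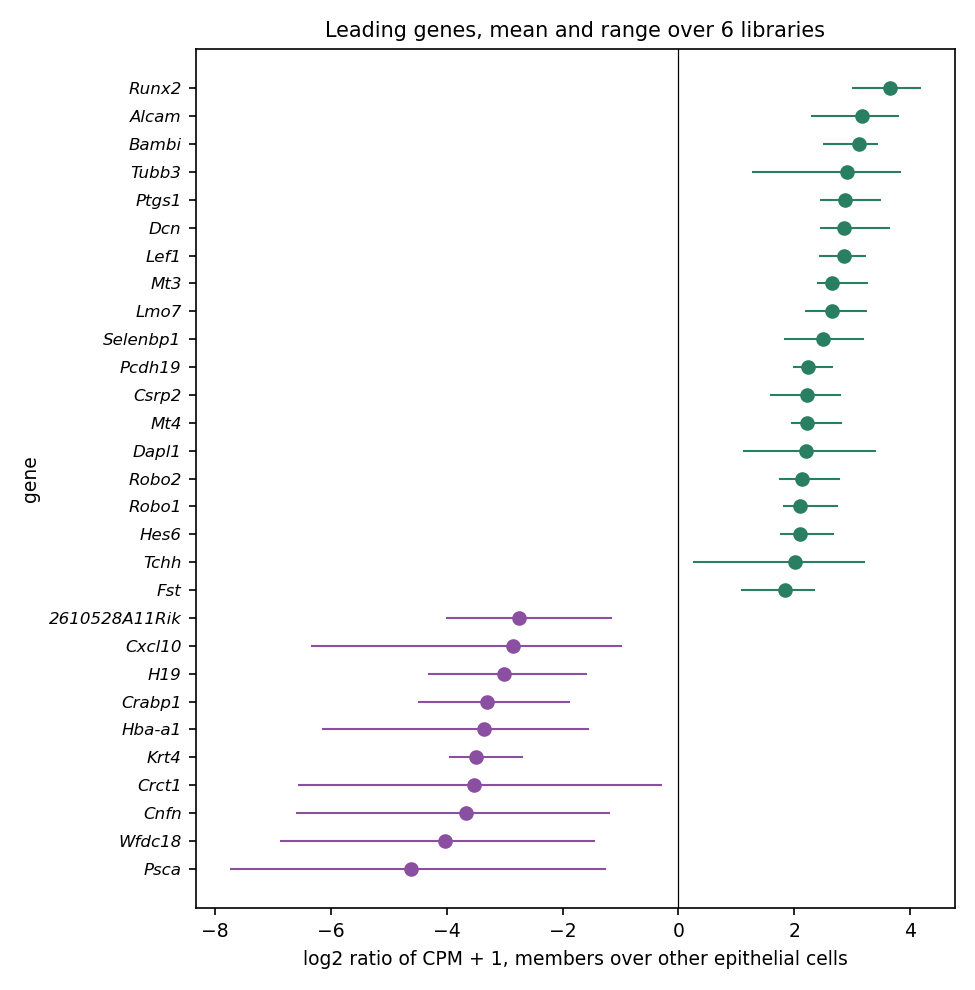
Log2 ratio of CPM plus 1 in Notum-Lhx6 cells over other epithelial cells for genes among the 20 highest, and for the 10 lowest, outside the rule; points are means and bars run from the lowest to the highest of 6 libraries. Runx2 stands at the top with 3.66 and Psca at the bottom with -4.61.

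Genes among the 10 whose level followed the number of detected rule genes most closely across epithelial cells were Dcn (mean Pearson correlation over the 6 libraries 0.60), Runx2 (0.59), Lmo7 (0.57), Lef1 (0.56), Mt4 (0.47), Bambi (0.46), Alcam (0.46), Ptgs1 (0.43) and Igfbp2 (0.41). These are correlations across cells of a library, whose depths differ, and they carry no test.

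Wnt pathway genes outside the rule were sorted by role, with genes counted only at 5 CPM or more on either side. Over all 9343 such genes the median log2 ratio was -0.08, and 792 were higher and 1497 lower in every library. Among 8 measured Wnt ligands and their export genes, Wnt5a was higher (45.1 against 13.4 CPM) and Wnt4, Wnt6, Wnt7b and Porcn were lower in every library. Among 12 receptors and co-receptors, Lgr6 stood out with 33.5 ± 14.2 CPM against 2.02 ± 0.589. Lgr6 is an R-spondin receptor that marks epithelial stem cells in skin and taste tissue. Fzd1 was higher too, at 58.1 against 25.1 CPM, as was Lgr4 (mean log2 ratio 1.16), and Lgr5 was close to 0, at 0.032 and 0.739 CPM.

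Of 9 measured Wnt antagonists 3 were higher and 4 lower in members in every library. The higher ones were Axin2 at 40.9 ± 7.28 against 5.64 ± 1.61 CPM, Rnf43 at 25.7 against 9.43 and Znrf3 at 20.3 against 10.5. The lower ones were the secreted Sfrp1, Sostdc1 and Dkk3, at 10.5 against 64.8, 10.3 against 74.0 and 21.3 against 36.2 CPM, and the corepressor Tle4, at 25.8 against 33.8. Lef1, the nuclear partner of beta-catenin, was at 196 ± 38.2 against 27.0 ± 8.23 CPM. Of 12 nuclear factors and targets measured, Tcf7, Bcl9, Sp6, Tnfrsf19 and Ctnnb1 were likewise higher in every library, whereas Ccnd1, Myc and Pygo2 were lower. The median ratio of the 4 Wnt lists ranged from -0.49 to 0.12. Axin2 stood at 46.2 and 41.7 CPM in the members of N, 38.3 and 28.2 in E, and 49.1 and 42.1 in Y. Both E libraries lay below the other 4, but E2 rested on 21 UMIs and Axin2 was not called for E6-E7 within members (edgeR).

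BMP genes showed ligands and antagonists together. Of 12 measured genes, Bmp2 (61.5 against 24.9 CPM), Bmp4 (28.3 against 10.1), Bmp7 (46.7 against 21.0), Fst, Bambi and Smad7 were higher in every library, and the BMP target Id3 was lower (245 against 384 CPM). Of 7 measured Hedgehog genes none was higher, and Gas1 and Cdon were lower in every library. Among 19 measured transcription factors of papillae and the face, Foxn1, Dlx3 and Ovol1 were higher, and Foxe1, Lmo4, Sox2, Sox9, Sox21, Barx2 and Tbx1 were lower.

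The name suprabasal papilla cell was checked against markers. Krt14 was at 10450 ± 586 CPM in members and 9086 ± 1020 in the other cells, and Krt5 at 4477 ± 788 and 4143 ± 368. Krt15, a further basal keratin, was lower in members in 6 of 6 libraries, at 2550 against 3949 CPM. The suprabasal keratin Krt13 was also lower in 6 of 6, at 2117 against 3078 CPM. Epithelial cells were chosen by keratins, so their levels here are a description only. Genes that anchor basal cells to the basement membrane were lower in members in every library, with Itga6 at 102 against 222, Itgb4 at 107 against 180 and Col17a1 at 222 against 410 CPM. The differentiation genes Klf4, Grhl3 and Dsg1a were higher in every library, whereas Krt4, Ly6d, Dmkn and Mal were lower. Of 13 measured basal genes 1 was higher and 7 were lower in every library. Of 21 measured suprabasal genes 3 were higher and 5 lower. The basal list summed to 5117 to 8674 CPM in members and 2890 to 4689 in the other cells. Its median log2 ratio was -0.59, so the higher sum does not stand for most of its genes. Of 12 measured cornified genes none was higher and 6 were lower in every library. Of the papilla keratins and their partners, Krt24 (262 against 112 CPM) and Tchh (151 against 29.5 CPM) were higher. The filiform papilla factor Hoxc13 was at 0.025 against 4.89 CPM, with a UMI in 1 member of 913, and Krt36, Krt84 and Krt75 were at 1.66, 0.484 and 0.057 CPM. Genes of both the basal and the suprabasal state were thus present, while Hoxc13, Krt36, Krt84 and Krt75 were at or near 0, so the cells are called by their leading genes here.

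Endothelial, melanocyte, muscle and taste genes and the fibroblast genes other than Dcn were at low levels. The fibroblast genes other than Dcn, among them Col1a1 (1.24 CPM), Col1a2 (0.814), Lum (0.341) and Pdgfra (0.158), did not accompany Dcn. Over the 6 libraries the summed level of 6 endothelial genes was 1.36 to 4.12 CPM in members, that of 6 melanocyte genes 0 to 6.37, that of 6 muscle genes 0 to 4.03 and that of 14 taste genes 5.73 to 12.2. The taste channel gene Otop1 was at 0. Immune genes, 12 in the list, summed to 18.8 to 216 CPM in members and 38.5 to 161 in the other cells. The 5 Merkel cell genes summed to 80.5 to 91.4 CPM in members and 103 to 167 in the other cells, most of it from Sox2. The 5 red cell genes summed to 4.74 to 84.3 CPM in members and 28.5 to 758 in the other cells. The part of these 3 lists in the results was not tested. The doublet caller Scrublet marked 1 of the 913 cells, but it marked only 0.0140% of the barcodes of E1 and so did not work there.

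Notum-Lhx6 cells were not uniform along the axis from the basal to the suprabasal state. After the data had been seen, the members of each of the 6 libraries were ordered by the UMIs of 4 hemidesmosome genes (Itga6, Itgb4, Col17a1, Dst) against those of 6 suprabasal genes (Sbsn, Krtdap, Lypd3, Ly6d, Tgm3, Dsg1a), and cut into 3 equal parts of 298, 298 and 301 cells in all. Jakmip2 was higher in the most basal part of every library, at 250 ± 66.5 CPM against 119 ± 72.5 in the most suprabasal part. Apcdd1 ran the other way in every library, at 275 ± 58.9 against 411 ± 136 CPM, and Golga7b did so in 5 of 6 (19.7 ± 12.5 against 33.5 ± 12.9). Otop3 was level along the axis, at 107 ± 30.5 and 111 ± 13.1 CPM, and so were Lhx6 (33.8 ± 8.27 and 39.3 ± 7.99) and Msx2 (52.8 ± 11.3 and 58.3 ± 19.2), with differences smaller than the SD over libraries. Notum was at 89.3 ± 26.2 against 69.0 ± 12.3 CPM and was higher in the basal part in 5 of 6 libraries.

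Genes outside both sets followed the same order. Dcn was higher in the most basal part in every library (4873 ± 521 against 2756 ± 829 CPM), and so were Lgr6 (44.7 ± 20.7 against 19.2 ± 11.2) and Axin2 (48.0 ± 7.89 against 31.5 ± 8.59). Lef1 was not, at 202 ± 53.1 and 210 ± 37.2 CPM. The cycling genes Mki67 and Top2a were also higher on the basal side in 6 of 6 libraries. Mt4 (16894 ± 1808 CPM in the most suprabasal part against 6718 ± 1090), Krt13, Krt6a, Krt24, Selenbp1 and Dapl1 were higher on the suprabasal side in every library, while Krt14 was at 9975 ± 712 and 10519 ± 1221.

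**Figure D3:**
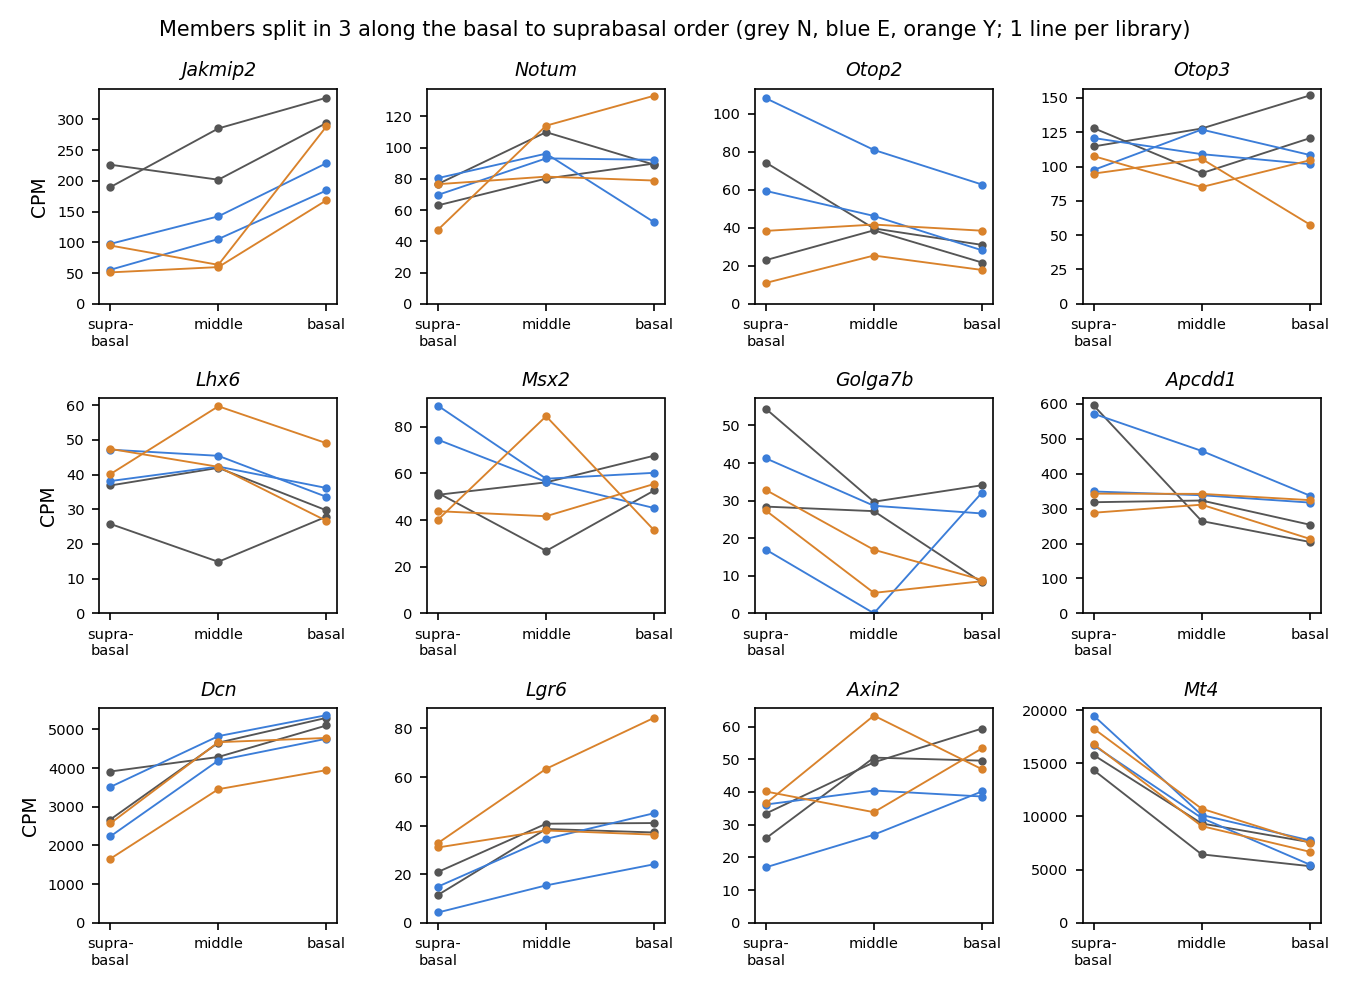
CPM of the 8 rule genes and of Dcn, Lgr6, Axin2 and Mt4 in the members of each library, cut into 3 equal parts from suprabasal to basal; each line is 1 of 6 libraries. Jakmip2, Dcn, Lgr6 and Axin2 end higher at the basal than at the suprabasal end, and Apcdd1 and Mt4 lower, in all 6 lines, while Otop3, Lhx6 and Msx2 show no common slope.

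The share of Notum-Lhx6 cells among epithelial cells was lower in the libraries with YAP1S127A. It was 9.34% (95% exact Clopper-Pearson interval 8.39 to 10.4) and 10.1% (7.39 to 13.4) in N, and 9.54% (8.66 to 10.5) and 5.61% (3.84 to 7.86) in E. It was 6.05% (4.81 to 7.49) and 3.70% (2.62 to 5.06) in Y, and 2.94% (0.962 to 6.73) and 0.543% (0.271 to 0.969) in EY. These intervals cover counting error only. The mean was 3.31% ± 2.27 (SD, n = 4) with YAP1S127A and 8.65% ± 2.06 (n = 4) without, a difference of -5.35 percentage points (p = 0.0571 by a two-sided exact permutation of library labels, 70 in all, and 0.114 once adjusted over both comparisons). The arms overlapped because E2 lay below Y1. With E6-E7 the mean was 4.66% ± 3.86 and without 7.30% ± 2.98, which differed by less than the spread between libraries (exact permutation p = 0.286, adjusted p = 0.286).

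The smallest p this design allows is 0.0286, which adjusts to 0.0571, so the adjusted test could not pass 0.05 here. That smallest p was reached for YAP1S127A where no upper limits on genes and UMIs were set. All 4 libraries with YAP1S127A then lay below all 4 without, at a mean of 2.49% ± 1.92 against 10.5% ± 1.21. At least 5 rule genes in place of 4 (1.98% against 5.63%) and cells thinned to 3000 UMIs (0.0701% against 0.715%) gave the same order. The thinned shares rest on very few members, 30 and 2 in N, 38 and 3 in E, 1 and 2 in Y, and 0 and 0 in EY. Without the limits the number of epithelial cells rose from 415 to 741 in N2 and from 553 to 944 in E2, but only from 3447 to 3521 in N1 and from 4055 to 4185 in E1. It rose from 1289 to 1897 and from 1001 to 1588 in Y, and from 170 to 481 and from 2027 to 2462 in EY.

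**Figure D4:**
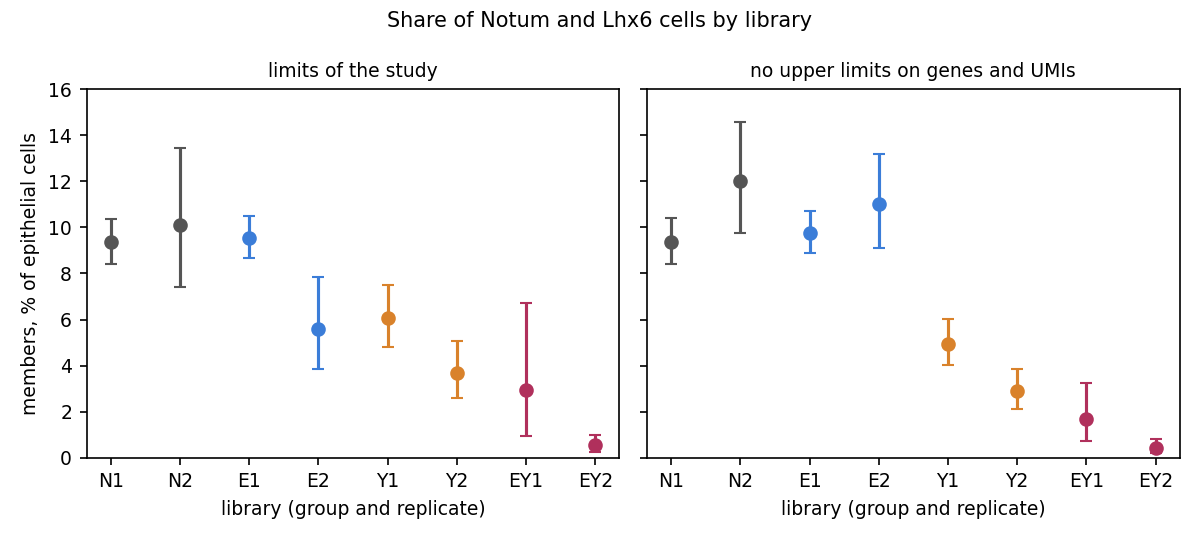
Notum-Lhx6 cells as a percentage of epithelial cells in each library, under the study's upper limits on genes and UMIs (left) and without them (right); bars are 95% exact binomial intervals. In the left panel E2 (5.61%) lies below Y1 (6.05%), and in the right panel every Y and EY library lies below every N and E library.

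The rule genes were also summed over all epithelial cells. The share is counted from UMIs of these same genes, so the sums are no independent support for it. Jakmip2 was at 43.4 and 37.0 CPM in N, 18.6 and 17.3 in E, 8.56 and 8.44 in Y, and 3.26 and 0.783 in EY. It fell by 2.80 ± 0.39 (SE) on the log2 scale with YAP1S127A over the 8 libraries, with E6-E7 as a second term (edgeR quasi-likelihood test, adjusted p = 0.00632 over all 13122 genes tested). It was the only 1 of the 8 genes called lower, where 3.84% of all genes tested were. The 8 genes were chosen with earlier results of these data known, and Jakmip2 was already called in them. Its p is therefore no independent test. Golga7b (log2 change -2.67, adjusted p = 0.0665), Apcdd1 (-1.33, 0.0625), Msx2 (-2.30, 0.0981), Notum (-1.78, 0.112), Otop3 (-0.79, 0.114), Lhx6 (-1.50, 0.180) and Otop2 (-1.29, 0.193) did not pass the edgeR test. Without the upper limits all 8 passed, with changes from -3.72 (Jakmip2) to -1.42 (Otop3). In such a sum, fewer cells of this kind and less RNA per cell cannot be told apart. For E6-E7 none of the 8 passed, where 0.434% of all genes tested did (edgeR). Jakmip2 was nearest, at -1.77 ± 0.38 with adjusted p = 0.138, and 2 of the 8 had an unadjusted p under 0.05.

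Within Notum-Lhx6 cells, E6-E7 raised genes of DNA replication and of the interferon response. The fit summed UMIs per library over the 6 libraries and had terms for both transgenes. With no EY library in it, the 2 effects are E against N and Y against N and share the N libraries. In all, 36 of 8337 genes were higher and none lower (edgeR quasi-likelihood test, adjusted p under 0.05), which is 0.432% of those tested. By known function, sorted after the calls were seen, 23 of the 36 are interferon-induced genes and 10 act in DNA replication or repair. The other 3 are Rnf227, Syce2 and Zcwpw1. Of the 36 genes, 34 reached a mean of 20 CPM.

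Mcm2, a subunit of the replicative helicase, stood at 5.11 and 5.95 CPM in N, 40.6 and 34.9 in E, and 7.01 and 9.51 in Y. Both E values lay far above the others (log2 change 2.79 ± 0.31 SE, edgeR adjusted p = 0.0115). Mcm3 stood at 13.8 and 14.9 CPM in N and 94.4 and 59.1 in E (log2 change 2.45 ± 0.37, adjusted p = 0.0399), and Mcm4 at 15.5 and 7.93 against 77.6 and 44.3 (2.23 ± 0.35, adjusted p = 0.0479). Gins2, a partner of the same helicase, stood at 7.57 and 11.9 against 36.2 and 43.0 CPM (2.08 ± 0.33, adjusted p = 0.0479). Of 17 measured genes of the G1/S list these 4 rose and none fell, with a median log2 change of 2.15, beside -0.01 over all genes tested. Ccne1 (2.88 ± 0.51, adjusted p = 0.054), Ccne2 (2.79 ± 0.49, 0.052) and Pcna (0.99 ± 0.18, 0.054) did not pass. The DNA ligase Lig1, the clamp-loader subunit Rfc3, the chromatin assembly factor Chaf1b, the helicase Hells and Tipin were among the other replication genes called.

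Of 15 measured interferon genes 9 rose and none fell, with a median log2 change of 2.91. Ifi27l2a stood at 283 and 272 CPM in N, 2274 and 3019 in E, and 916 and 1017 in Y. It was thus lowest in N and highest in E, and it was called for both transgenes (3.19 ± 0.19 for E6-E7, edgeR adjusted p = 0.000271, and 1.82 ± 0.18 for YAP1S127A). Rsad2, an antiviral enzyme, stood at 1.70 and 0 CPM in N, 75.8 and 26.8 in E, and 7.65 and 1.36 in Y (5.26 ± 0.70, adjusted p = 0.0249). Usp18, a brake on interferon receptors, was at 7.38 and 1.98 CPM in N and 64.3 and 64.4 in E (3.36 ± 0.35, adjusted p = 0.0115). The transcription factor Irf7 was at 12.9 and 0.992 against 79.3 and 55.0 CPM (2.81 ± 0.47, adjusted p = 0.0499). Ifi44 was at 6.25 and 0 CPM in N and 68.9 and 65.8 in E (3.76 ± 0.48, adjusted p = 0.0196). Stat2, which carries the interferon signal to the nucleus, and Oas1a, Oasl2 and Ifitm3 also rose. The remaining genes named by their size of change were Dhx58 (3.13 ± 0.53), Apol9b (3.07 ± 0.37), Zcwpw1 (4.75 ± 0.75) and Rnf227 (2.86 ± 0.48). Apol9a and Apol9b, and Oas1a and Oas1g, are near-identical copies whose reads the counting may split, so their values are uncertain.

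The promoters of these genes are shown because the genes rose together. The RefSeq table of GRCm38.p6 held 25 of the 36, and the 250 bases before each start were searched on both strands. An interferon-stimulated response element written GAAANNGAAA was present in 10 of the 25 (40.0%). It was present in any promoter of 3.46% of all 27025 genes in the table. The 10 were Apol9a, Apol9b, Ddx60, Gbp3, Lgals9, Oas1a, Oas1g, Rsad2, Stat2 and Zcwpw1, which include both pairs of near-identical gene copies. An E2F motif written TTTGGCGC, TTTCGCGC or TTTCCCGC was present in Hells, Rfc3 and Syce2 (12.0%), against 1.78% of all genes in the table. The motifs were chosen after the calls were seen, and a match is a description of letters and not a binding site. In the lines that follow the match is in capitals, in Rsad2 and Stat2 that of the first motif and in Rfc3 and Hells that of the second.
Rsad2 (chr12:26456453-26456702, minus strand): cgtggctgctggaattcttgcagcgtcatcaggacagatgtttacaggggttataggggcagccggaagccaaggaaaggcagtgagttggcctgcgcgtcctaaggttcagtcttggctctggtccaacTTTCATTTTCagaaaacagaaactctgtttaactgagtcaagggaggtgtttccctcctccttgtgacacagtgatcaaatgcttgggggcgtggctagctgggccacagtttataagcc
Stat2 (chr10:128270248-128270497, plus strand): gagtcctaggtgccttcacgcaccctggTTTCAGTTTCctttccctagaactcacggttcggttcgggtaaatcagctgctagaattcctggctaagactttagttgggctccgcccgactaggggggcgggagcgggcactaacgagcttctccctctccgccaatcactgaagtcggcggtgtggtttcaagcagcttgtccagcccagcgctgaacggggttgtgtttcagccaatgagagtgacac
Rfc3 (chr5:151651209-151651458, minus strand): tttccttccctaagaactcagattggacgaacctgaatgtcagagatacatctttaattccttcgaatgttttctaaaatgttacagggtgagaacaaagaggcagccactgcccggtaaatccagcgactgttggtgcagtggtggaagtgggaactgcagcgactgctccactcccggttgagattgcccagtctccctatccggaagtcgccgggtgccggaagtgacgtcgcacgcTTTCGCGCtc
Hells (chr19:38930740-38930989, plus strand): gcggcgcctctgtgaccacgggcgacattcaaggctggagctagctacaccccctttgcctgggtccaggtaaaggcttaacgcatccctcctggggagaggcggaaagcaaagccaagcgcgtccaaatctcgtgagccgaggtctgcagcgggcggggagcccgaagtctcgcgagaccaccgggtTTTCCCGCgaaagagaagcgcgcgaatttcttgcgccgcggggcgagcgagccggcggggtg

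The E6-E7 effect was not shown to differ between Notum-Lhx6 cells and the other epithelial cells. In a fit with a term for each library, 0 of 11991 genes differed (edgeR, 0% of those tested), with 378 at an unadjusted p under 0.05, and DESeq2 also called 0. Mcm2 stood at 13.2 and 5.43 CPM in the other cells of N and at 40.2 and 25.9 in those of E, and the difference of its effects was 1.24 ± 0.36 on the log2 scale (edgeR unadjusted p = 0.00331, adjusted p = 1). Rsad2 stood at 2.36 and 0.517 CPM against 72.8 and 30.7, and Ifi27l2a at 334 and 553 against 2374 and 2967.

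The order of the groups in the share of dividing cells depended on thinning. After thinning to 3000 UMIs, the share of members with at least 2 UMIs of 20 G2/M genes was 24.5 and 31.0% in N, 42.5 and 16.1% in E, and 17.9 and 16.2% in Y. The E libraries held both the highest and the lowest of these values, and both Y libraries lay below both N libraries. Without thinning the shares were 49.4 and 59.5% in N, 67.2 and 67.7% in E, and 52.6 and 37.8% in Y. Both E libraries then lay above all N and Y libraries, while N and Y overlapped. No gene of the G2/M list was called for E6-E7 (0 of 20, median log2 change 0.41), where 0.432% of all genes tested were. After thinning, the share in members was below that in the other cells in 5 of 6 libraries. The mean difference was 8.01 ± 11.2 percentage points (SD, n = 6), which is within the spread. Without thinning, members lay above the other cells in both E libraries (67.2 and 67.7% against 59.5 and 62.5%) and below them in N and Y. Members and other cells were not tested against each other. The transgene effects on this share were not tested, since only 2 libraries with YAP1S127A could enter.

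With YAP1S127A, 7 of 8337 genes rose within Notum-Lhx6 cells and none fell (edgeR, 0.084% of those tested). Yap1 itself stood at 34.1 and 41.7 CPM in N, 33.6 and 49.7 in E, and 155 and 277 in Y (log2 change 2.55 ± 0.32 SE, edgeR adjusted p = 0.0406). All Y values lay above all others. Whether the added UMIs came from the transgene or the native gene was not tested. The largest change among the 7 was that of the phospholipase gene Plb1, at 6.82 and 1.98 CPM in N and 51.6 and 107 in Y (3.80 ± 0.49, adjusted p = 0.0406). Sbspon (3.17 ± 0.42), 2200002D01Rik (2.20 ± 0.24) and the matrix protein gene Sparc (1.99 ± 0.26) followed. Wnt4 was the only Wnt gene of the lists called, at 200 and 180 CPM in N, 334 and 332 in E, and 461 and 412 in Y (1.22 ± 0.16, adjusted p = 0.0425).

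The YAP target list had no call within these cells, 0 of 13 measured, where 0.084% of all genes tested were called. No call among so few genes therefore says little about them. Their median log2 change was 0.72 beside 0.00 over all genes tested. Amotl2 (2.70 ± 0.54, edgeR adjusted p = 0.157), Ccn1 (1.64 ± 0.40, 0.317) and Ptpn14 (1.41 ± 0.26, 0.102) were among those that did not pass. None of the 12 nuclear Wnt factors and targets, 9 antagonists, 11 receptors or 11 BMP genes measured was called, beside the same 0.084% of all genes tested. Axin2 changed by 0.08 ± 0.22 and Lef1 by -0.22 ± 0.25. Leaving out N1, N2 or Y2 left none of the 7 calls, leaving out Y1 left 2 of them, and all 7 kept their direction. For E6-E7, leaving out E1 left 3 of the 36 calls, Y1 7, N2 11, Y2 14, N1 15 and E2 34, and every gene still tested kept its direction.

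**Figure D5:**
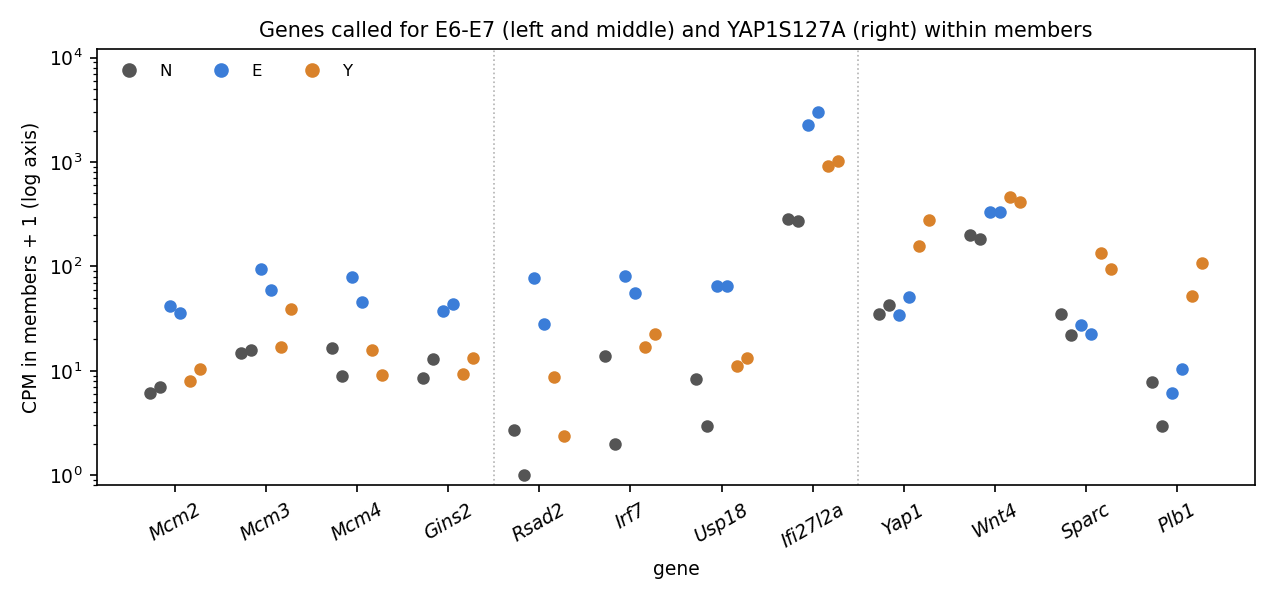
CPM plus 1 (log axis) within Notum-Lhx6 cells of 4 replication genes, 4 interferon genes and 4 genes called for YAP1S127A, 1 point per library for N, E and Y. The E points lie above all others for the first 8 genes and the Y points for the last 4, which were all called on these same values.

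The YAP1S127A effect differed between Notum-Lhx6 cells and the other epithelial cells for 20 of 11991 genes (edgeR, 0.167% of those tested). In 4 the change was more positive in Notum-Lhx6 cells and in 16 more negative. Yap1 itself was at 155 and 277 CPM in the members of Y and at 214 and 459 in their other cells. Crct1 was at 1.14 and 9.05 CPM in the other cells of N and at 280 and 1112 in those of Y. The part of the Yap1 level, or of a changed mix of other cells, in these differences was not tested. Tgfbi, a matrix protein gene, stood at 7.38 and 12.9 CPM in the members of N and 56.1 and 19.0 in those of Y, but at 58.7 and 60.5 against 78.2 and 49.0 in the other cells. Egln3, an oxygen-sensing prolyl hydroxylase, stood at 11.5 and 6.94 against 24.8 and 87.0 CPM in members, and at 9.74 and 7.50 against 98.3 and 308 in the other cells. Of these 20 genes, 8 were still called without N1 and 18 to 20 without any other single library. The procoagulant gene F3, a known YAP target, was at 2.55 and 0 CPM in the members of Y, where the other cells held 83.4 and 134. Its difference did not pass the test (-3.35 ± 0.85, edgeR adjusted p = 0.163).

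The 16 Notum-Lhx6 cells of EY mice were too few for a test, and their values rest on 106169 and 131759 UMIs. Yap1 had 5 UMIs in each library, or 47.1 CPM (exact 95% Poisson interval 15.3 to 110) and 37.9 CPM (12.3 to 88.6). The other epithelial cells of the same libraries held 224 CPM (205 to 244) and 166 CPM (162 to 170). Both EY values lay near those of the N and E members (33.6 to 49.7 CPM), and their intervals lay below the Y members (155 and 277 CPM). Other genes called for YAP1S127A, and YAP targets that were not called, did not all lie in the range of N and E in the same 16 cells. Plb1 was at 37.7 and 68.3 CPM on 4 and 9 UMIs, above the highest N or E value of 9.40. 2200002D01Rik was at 235 and 45.5 CPM on 25 and 6 UMIs, above the highest N or E value of 25.5. Sparc was at 56.5 and 22.8 CPM on 6 and 3 UMIs, Wnt4 at 593 and 213 CPM, and Sbspon had 0 UMIs in both, which at this depth does not show its absence. Amotl2 was at 18.8 and 30.4 CPM on 2 and 4 UMIs, where N and E reached 10.6. Ccn1 was at 198 CPM (122 to 302) in EY1 and 37.9 (12.3 to 88.6) in EY2, where N and E ran from 32.7 to 82.8. Ptpn14 was at 18.8 and 15.2 CPM on 2 UMIs each, where N and E ran from 16.9 to 28.2. Lats2 was at 9.42 and 7.59 CPM on 1 UMI each, where N and E reached 8.93. F3 was at 9.42 and 15.2 CPM on 1 and 2 UMIs, where N and E reached 2.46. Ifi27l2a was at 2703 and 3643 CPM and Rsad2 at 65.9 and 334 CPM in the same cells, within or above the range of E. Axin2 was at 37.7 and 37.9 CPM on 4 and 5 UMIs, and Dcn was at 1912 and 2262 CPM, below the 2933 to 4589 CPM of the 6 other libraries. Msx2 had 1 and 0 UMIs.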

How the data were processed

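Single viable cells of mouse tongue epithelium were profiled by 3' droplet sequencing in 8 libraries, 2 per group. The deposited matrices hold raw UMI counts per gene and cell barcode, which the authors made with Cell Ranger on mm10, according to the submitters' processing notes and the methods. The labels and the methods name different kit versions. The members and gene lists used here were chosen with earlier results of these data known. Groups came from the genotype labels. Cells were filtered as in the study, with keratin and Ptprc limits added, and no doublet caller in the main analysis. Counts were summed per library over members, over other epithelial cells and over all epithelial cells. Sums were tested with edgeR 4.0.16 (TMM scaling, filterByExpr, quasi-likelihood F test, Benjamini-Hochberg adjustment over all genes tested), in R 4.3.3, and the code was first tested on simulated data. Shares were compared by exact permutation of libraries. Each library is taken as 1 sample, and where animals were not separate the p-values measure only the spread between these samples. Standard errors are the absolute log2 change over the square root of F. DESeq2 1.42.0 was an alternative. CPM are UMIs scaled to a sum of 1000000.

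Genes were named by rule, and some that met it are not reported here. Against other cells these were the 20 largest and 10 smallest mean log2 ratios with at least 50 CPM and 1 direction in all libraries. Between conditions they were up to 10 rises and 10 falls called, at 20 CPM or more, with libraries of the arms apart, and up to 5 and 5 for differences. The 10 genes with the highest mean correlation with the number of rule genes, and called or leading genes of the lists, were added. The parts of the axis, the classes of called genes, the motifs and F3 were chosen after values were seen. Promoters came from RefSeq (GRCm38.p6), and gene positions from GENCODE on GRCm38. EY against N within members, and a minimum of 50 members per library, were not fitted for lack of libraries. With EY left out, the model with group means is the same as the additive one. Fold changes rest on few UMIs in the smallest sums.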

Additional observations from a re-analysis of the deposited data

Results flagged for a closer look

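The effect of YAP1S127A differed between Notum-Lhx6 cells and the other epithelial cells in 20 genes (edgeR test of the difference, 6 libraries). The part of unequal Yap1 levels, or of a changed mix of other cells, was not tested. Of those at 20 CPM or more, the 5 most negative and the 3 positive ones are given here as the log2 change in members minus that in other cells. Tgfbi was at 2.11 ± 0.30 (SE), Sparc at 1.19 ± 0.21 and the BMP target Id2 at 0.96 ± 0.17. Sparc was at 34.1 and 20.8 CPM in the members of N and 133 and 92.4 in those of Y, and at 63.1 and 69.1 against 129 and 82.1 in the other cells. Id2 was at 138 and 69.4 against 103 and 80.2 CPM in members, and at 211 and 101 against 77.3 and 66.1 CPM in the other cells.

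On the negative side were Spink5 at -1.70 ± 0.27, Egln3 at -2.07 ± 0.26, Bnip3 at -2.08 ± 0.33, Asprv1 at -2.55 ± 0.42 and Cldn4 at -2.63 ± 0.44. Spink5 and Asprv1 belong to late epidermal differentiation, and Egln3 and Bnip3 are known hypoxia-response genes. Bnip3 was at 57.0 and 42.6 CPM in the members of N and 29.3 and 110 in those of Y, and at 8.33 and 12.3 against 32.5 and 63.9 in the other cells. Without N1 none of these 5 passed the edgeR test, and the difference shrank to -0.43 for Cldn4 (adjusted p = 0.970) and -0.70 for Spink5 (adjusted p = 0.863). With DESeq2, Cldn4 (adjusted p = 0.672), Spink5 (0.233) and Asprv1 (0.214) did not pass, while Egln3 and Bnip3 did. Without Y1, Asprv1 (adjusted p = 0.164) and Tgfbi (0.175) did not pass edgeR either, and without N1 neither did Tgfbi (0.0816) and Id2 (0.0873). Y2 held the higher value for Egln3 and Bnip3 in both kinds of cell.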

How the results depend on the processing

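Shares kept their direction in all settings tried (3 or 5 rule genes, thinning, no upper limits, a keratin limit of 2%, a mitochondrial limit of 15%, Scrublet) and with 4 of 7 genes without Jakmip2, which was added after seeing the data, as were the split along the axis and the fit with members taken out, in which Jakmip2 stayed called (-3.14). The adjusted test of the shares could not pass in any setting, since the smallest p allowed is too large. Leaving out 1 library gave differences of -6.36 to -4.42 percentage points for YAP1S127A and -4.27 to -1.27 for E6-E7. Counts of called genes moved, and the cause was not tested. For YAP1S127A within members (7) they were 26 with DESeq2, 179 with no filter on low counts, 1 with at least 10 members per library (EY2 joins), 13 with 3 and 0 with 5 rule genes, 36 with no upper limits, and 0 to 24 without 1 library. For E6-E7 (36) they were 241 with no filter, 60 with at least 10 members, 59 with no upper limits, and 7 to 108 without 1 library. For the difference of the YAP1S127A effect (20) they were 158 with no filter and 39 to 193 without 1 library, and for E6-E7 (0) 32 and 4 to 45. Rule genes called over all epithelial cells for YAP1S127A (1) were 5 with DESeq2, 8 with no filter and 8 with no upper limits. For E6-E7 (0) they were 1 with DESeq2, 3 with no filter, and 0 to 1 without 1 library, where EY2 gave the call. Otop3 for E6-E7 (-0.19) ranged from -0.45 to 0.018 without 1 library, and its sign turned without E2. Where an arm was left with 1 library, that library was assumed to vary like the others. No paired analysis was possible because the labels number animals and groups share no replicate number. Members in E2, Y2 and N2 numbered 31 to 42, which limits genes of low level.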

Other observations

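Some other groups of genes also set Notum-Lhx6 cells apart from the other epithelial cells of the same 6 libraries, given here as values. Of 7 gland and duct genes at 5 CPM or more, 6 were lower in every library, with Krt19 at 0.897 against 36.0 CPM and Krt7 at 1.22 against 23.5 CPM. Notch3 was higher (18.0 against 7.27 CPM) and the ligand gene Dll1 lower (4.36 against 11.9 CPM) in every library.

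Krt24, a type I keratin outside the rule, had a UMI in 55.0 to 78.6% of the members of N and E, 38.5 and 24.3% of those of Y, and 1 of 5 and 4 of 11 of those of EY. In the other cells the shares were 28.5 to 44.5% in N and E, 14.8 and 8.61% in Y, and 6.06 and 0.595% in EY. In both kinds of cell these shares were lower in the Y libraries than in all N and E libraries. The EY shares were lowest in the other cells but overlapped Y in members, and the order was not tested. As a level, Krt24 in members was at 281 and 359 CPM in N, 278 and 283 in E, and 112 and 257 in Y, so Y2 lay close to 3 of these 4.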
